A study of Paralichthys olivaceus with 6 samples.

Results

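Among the 22498 genes of the count and RPKM tables, 2 gene IDs, GS_014679 and GS_018838, carry the name KRT13 (keratin, type I cytoskeletal 13), which the tables of the paper give beside the entry of a rainbow trout keratin. Both IDs were found in both tables, and both passed the filter on low counts. They were chosen because the study had picked them as pigmentation genes that were lower in albino skin, and that choice used the same 6 libraries. The difference between albino and normal fish is therefore given below as a description. Whether a test called each gene is stated only as a limit and not as support. Rank, share of the library, spread within a group and the relation of the pair within a fish were not the study's criterion. They are not free of the choice, since the study's test weighs read number and spread within a group. The pair was also taken up here as an abundant and a scarce gene, with earlier results known.

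Messenger RNA of skin from the eyed side of the Japanese flounder, Paralichthys olivaceus, was sequenced for 3 normally pigmented wild type fish (PO_con1 to PO_con3) and 3 albino fish (PO_alb1 to PO_alb3), all 5 months old and from 1 full-sib family. No treatment was given, and no gene or allele behind the albinism is named in the labels. Each library came from 1 fish, and the reads counted to genes ranged from 17905084 to 20025047 per library. The 10 most abundant genes of a library held 25.1% of its counts in PO_con3 and 37.3% in PO_alb3, the lowest and the highest share. The scaling factors by TMM (trimmed mean of M-values, which corrects for such differences in composition) were 0.879 to 1.27 in normal and 0.791 to 1.05 in albino libraries. Read counts scaled in this way are called normalized counts here.

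Keratins form the intermediate filaments of epithelial cells. A type I (acidic) chain pairs with a type II (basic) chain, and the paired chains assemble into the filaments that give epithelial sheets their mechanical strength. In mammals KRT13 is a keratin of the layers above the basal cells in moist stratified epithelia such as those of the mouth and oesophagus, which do not form a horny layer. The epidermis of most fish is likewise a living, mucus-covered stratified epithelium, and bony fish carry many type I keratin genes of their own. The name KRT13 on a fish keratin therefore says nothing of a shared site of expression.

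The gene models of the pair differ in size. The length that the RPKM values imply was 2319 bases for GS_014679 and 1035 bases for GS_018838. Such implied lengths were multiples of 3 for nearly all known genes, so they are coding lengths without untranslated regions. The other named intermediate filament genes had coding lengths of 1290 (KRT18), 1359 (VIM), 1401 (DES) and 1902 bases (LMNA), which places GS_014679 above and GS_018838 below all 4 of them. The study's annotation put the pair on different chromosomes. Their coordinates and sequences were not analysed here, and reads from stretches that keratin genes share could have been assigned to either gene or to none, which was not tested.

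GS_014679 was an abundant transcript in every fish. Its RPKM, a read count divided by coding length and by the total of the library, was 475 in PO_con1, 630.2 in PO_con2 and 1173 in PO_con3. The albino fish PO_alb1, PO_alb2 and PO_alb3 had 331, 251 and 152. All normal fish lay above all albino fish, and PO_con3 stood well above the other normal fish. In normalized counts 7.47% of all genes tested had their groups apart in this direction, and the share in RPKM was not counted. In bulk skin, fewer cells that express this gene and less of its RNA per cell cannot be told apart. Which cells of the skin held this RNA was not tested.

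GS_018838 was scarce. Its RPKM was 5.02 in PO_con1, 6.43 in PO_con2 and 8.48 in PO_con3. The albino fish PO_alb1, PO_alb2 and PO_alb3 had 2.10, 1.45 and 1.07. The groups were again apart, as in 7.47% of all genes tested (every albino normalized count below every normal one), and the fish stood in the same order as for GS_014679, with PO_con3 at the top and PO_alb3 at the bottom. These values rest on 104, 122 and 160 reads in the normal fish, by replicate number, and on 39, 28 and 20 reads in the albino fish. For GS_014679 the reads were 22040, 26791 and 49584 in normal fish, by replicate number, and 13746, 10852 and 6373 in albino fish.

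**Figure D1:**
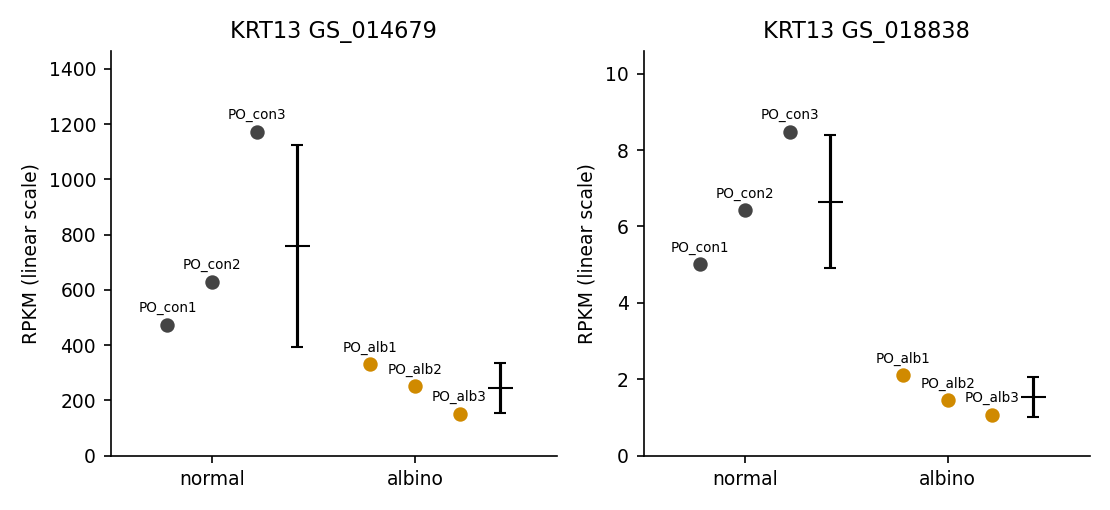
RPKM (vertical axes, linear scale, different ranges) of GS_014679 and GS_018838 in each of 3 normal and 3 albino fish, 1 point a fish, with the group mean and SD as a bar beside the points. GS_014679 ran from 152 to 1173 and GS_018838 from 1.07 to 8.48, and in both genes every normal fish was above every albino fish. In normalized counts this held for 7.47% of all genes tested.

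The same order of fish within each group was common in these libraries. On the RPKM scale 22.6% of the 16260 genes tested put the 3 normal and the 3 albino fish in the order of the pair, and on normalized counts 7.12% did. Many other genes thus shared this order, and the TMM factors and the share of the most abundant genes also differed most between PO_con3 and PO_alb3.

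In the transcriptome as a whole, 20815 genes had at least 1 read. By mean RPKM over the 6 fish GS_014679 ranked 202nd (mean RPKM 502), within the top 0.970% of these genes. GS_018838 ranked 10402nd (mean RPKM 4.09), so that 50.0% of the genes with a read were below it. For scale, the most abundant gene had a mean RPKM of 58025, the 10th 24696 and the 100th, which was the muscle filament gene DES, 1074. Within single fish the rank of GS_014679 ran from 103 in PO_con3 to 196 in PO_con1 among normal fish and from 262 in PO_alb1 to 441 in PO_alb3 among albino fish. The rank of GS_018838 was 7902 to 8616 in normal and 12999 to 14096 in albino fish. Ranks of neither gene overlapped between the groups, a separation tied to the contrast on which the pair was chosen. In 7.47% of all genes tested every albino normalized count was below every normal one, and the like share for ranks was not counted. The genes next above and next below GS_014679 in the order had mean RPKM of 503 and 500.6, and ranges over the fish of 348 to 718 and 171 to 877, against 152 to 1173 for the keratin itself. The neighbours of GS_018838, both with a mean RPKM of 4.09, ranged from 2.59 to 5.59 and from 2.96 to 5.90, against 1.07 to 8.48. Both keratins thus had a wider range over the 6 fish than the genes on either side of them, a range that includes the difference between the groups on which they were chosen.

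**Figure D2:**
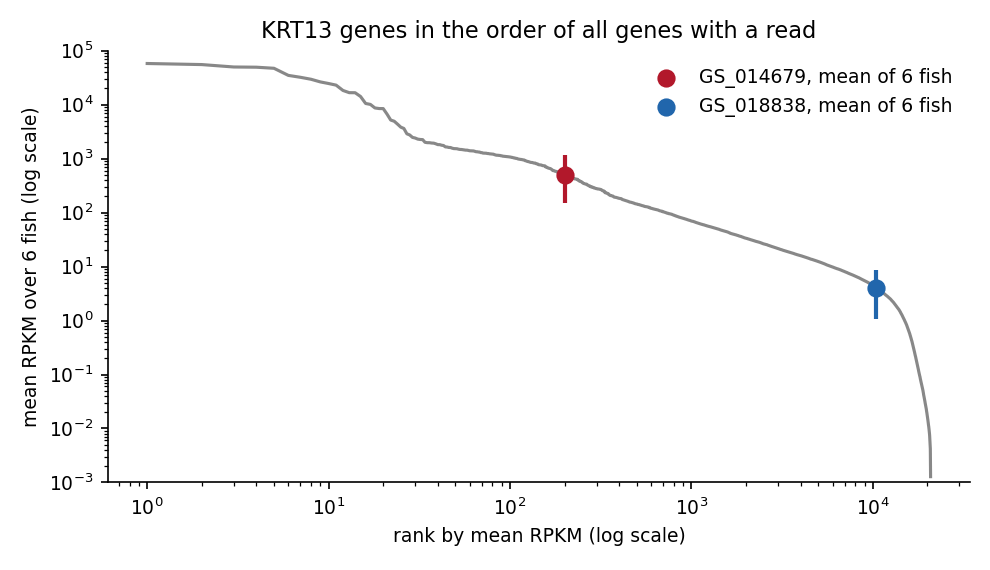
Mean RPKM over 6 fish (vertical axis, log scale) against rank by mean RPKM (horizontal axis, log scale) for all genes with a read, with the KRT13 genes as points and their lowest to highest RPKM as vertical lines. GS_014679 stands at rank 202 and GS_018838 at rank 10402.

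As a share of all counted reads, GS_014679 took 0.110% in PO_con1 (95% Wilson interval 0.109% to 0.112%), 0.146% in PO_con2 (0.144% to 0.148%) and 0.272% in PO_con3 (0.270% to 0.274%). Among albino fish the share was 0.0768% in PO_alb1 (0.0755% to 0.0781%), 0.0582% in PO_alb2 (0.0572% to 0.0594%) and 0.0352% in PO_alb3 (0.0344% to 0.0361%). These intervals hold counting error alone, and none of the 6 overlapped another, so the depth was not what limited the comparison of fish for this gene. For GS_018838 the CPM (the count over the library total, on the usual scale of that unit) of normal fish, by replicate number, were 5.19, 6.65 and 8.78, and those of albino fish were 2.18, 1.50 and 1.11. As a share of the library it was 0.000878% in PO_con3, with an interval of 0.000752% to 0.00102%, and 0.000111% in PO_alb3, with one of 7.16e-05% to 0.000171%. Of the reads of the 3 keratin genes that carry a name, namely the pair and KRT18, GS_014679 held 98.9% to 99.2% in normal and 99.6% to 99.7% in albino fish.

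Within a fish the levels of the pair can be compared per length without any scaling between libraries. Each ratio rests on the implied lengths of the gene models, 2319 and 1035 bases. Whether these models are complete was not tested, and the counting intervals do not hold an error in them. The RPKM of GS_014679 was 94.6 times that of GS_018838 in PO_con1 (95% counting interval 78.0 to 116), 98.0 times in PO_con2 (82.0 to 118) and 138 times in PO_con3 (118 to 163). Among albino fish it was 157 for PO_alb1 (115 to 221), 173 for PO_alb2 (119.6 to 260.4) and 142 for PO_alb3 (92.0 to 233). The mean log2 ratio over the 6 fish was 7.03 ± 0.36 (SD, n = 6), that is 131-fold. For normal fish alone the mean was 6.76 ± 0.30 (SD, n = 3), and for albino fish alone it was 7.29 ± 0.14 (SD, n = 3). The ratio was thus higher in each albino fish than in each normal fish, with a difference of the log2 means of 0.53, and the difference was 0.43 to 0.71 with any 1 fish left out. The point values of PO_con3 and PO_alb3, the neighbours across the groups, lay well inside the counting interval of the other, since GS_018838 had only 20 reads in PO_alb3. With 1 added to each RPKM before the logarithm, the difference of the log2 means was -0.011, an addition that weighs on GS_018838, with albino values close to 1 RPKM, and hardly on GS_014679. The difference between the groups in this ratio comes from the contrast on which the pair was chosen and was not tested. How many other pairs of genes have ratios apart between the groups was not counted.

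**Figure D3:**
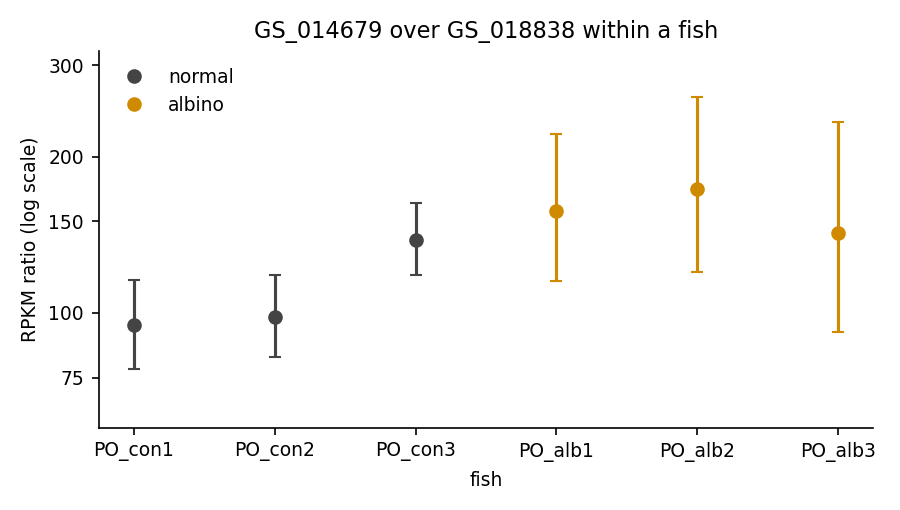
RPKM of GS_014679 over that of GS_018838 (vertical axis, log scale) in each fish, with 95% counting intervals as bars. The ratio was 94.6 to 138 in the 3 normal fish and 142 to 173 in the 3 albino fish, and the intervals of all normal fish overlap those of PO_alb1 and PO_alb3, and that of PO_con3 also that of PO_alb2.

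The pair was read at very different depths, and its spread between fish of a group is given beside the noise of counting. The normalized count of GS_014679 in normal fish, by replicate number, was 23211, 26295 and 39630.2, a mean of 29712 ± 8727 (SD, n = 3) and a coefficient of variation (CV) of 29.4%. The normalized count of GS_018838 was 109.5, 119.7 and 128 in the same fish, a mean of 119 ± 9.20 (SD, n = 3) and a CV of 7.73%. Counting noise alone would give a CV of 0.449% to 0.674% for the reads of GS_014679 in these fish, and one of 7.91% to 9.81% for those of GS_018838. After TMM scaling the spread of GS_018838 over normal fish was no larger than counting noise, whereas on the RPKM scale its CV was 26.2%, above that noise. Expressed as chi-square per degree of freedom, where counting noise alone gives about 1, the values in normal fish were 2826 for GS_014679 and 0.759 for GS_018838. This measure grows with the number of reads, so it does not compare the spread of the pair. The median over all genes tested was 4.76, and 16.9% of them were at 1 or below. GS_014679 was more variable than 77.2% of all genes tested by CV in normal fish and GS_018838 more than 15.0%, with a median CV of 17.7%.

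In albino fish the 2 genes had similar CV. The normalized count of GS_014679 was 13589, 10308 and 8249.5 in PO_alb1 to PO_alb3 (mean 10716 ± 2693, SD, n = 3, CV 25.1%). That of GS_018838 was 38.6, 26.6 and 25.9 (mean 30.3 ± 7.12, SD, n = 3, CV 23.5%). The chi-square per degree of freedom was 600.3 for GS_014679 and 1.60 for GS_018838, with a median of 3.39 over all genes tested. By CV in albino fish GS_014679 was more variable than 73.7% of all genes tested and GS_018838 more than 70.5%, with a median CV of 15.9%. The scarce gene had 20 to 39 reads a fish here, for which counting noise alone gives a CV of 16.0% to 22.4%.

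Single fish and the scaling set these spreads. Without PO_con3 the CV of GS_014679 in normal fish was 8.81%, although its chi-square per degree of freedom was still 188. Without PO_alb1 the CV of GS_018838 in albino fish was 1.91%, and without PO_alb1 that of GS_014679 was 15.7%. Without PO_con1 the CV of GS_018838 in normal fish was 4.65%. On the RPKM scale, which divides by library totals without TMM, the CV of GS_014679 was 48.3% in normal and 36.7% in albino fish, and that of GS_018838 in albino fish was 34.0%. With 3 fish a group, the difference in spread between the genes was not tested.

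**Figure D4:**
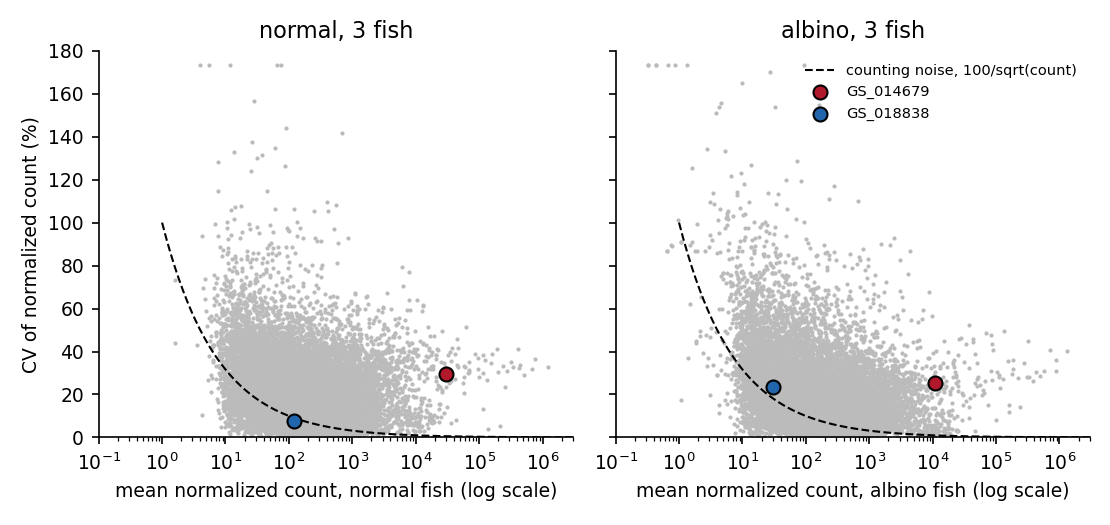
CV of the normalized count over the 3 fish of a group (vertical axes, %) against the group's mean normalized count (horizontal axes, log scale) for all 16260 genes tested, with the KRT13 genes as large points and counting noise as a dashed line. In normal fish GS_018838 lies just below the line with 7.73% and GS_014679, with far more reads, above it with 29.4%, and in albino fish they lie at 23.5% and 25.1%.

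Both genes had lower values in albino skin, which is the property that chose them. The log2 fold change of albino over normal was -1.47 (SE 0.29) for GS_014679 and -1.96 (SE 0.22) for GS_018838, 2.77-fold and 3.90-fold lower. The edgeR quasi-likelihood test, at an adjusted threshold of 0.05, did not call GS_014679. It called GS_018838 lower, beside 0.910% of all genes tested. The lowest normal fish was 1.71 times the highest albino fish in normalized count for GS_014679 and 2.84 times for GS_018838, and 1.43 times and 2.38 times in RPKM. In RPKM the difference of the group means was 514 for the abundant gene (759 ± 366 in normal and 245 ± 89.7 in albino fish, SD, n = 3) and 5.10 for the scarce one (6.64 ± 1.74 against 1.54 ± 0.524, SD, n = 3). The abundant gene thus had the larger difference per length and the smaller one in proportion, a contrast that, like the fold changes, follows from values the choice of the pair had used.

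For orientation, 2.63% of the genes tested had a log2 fold change under -1, and 145 genes had a lower one than GS_018838 and 237 a lower one than GS_014679. With PO_con3 left out the log2 fold change of GS_014679 was -1.19, and without both PO_con3 and PO_alb3 (a choice made after the values were seen) it was -1.05, while that of GS_018838 was -1.81.

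**Figure D5:**
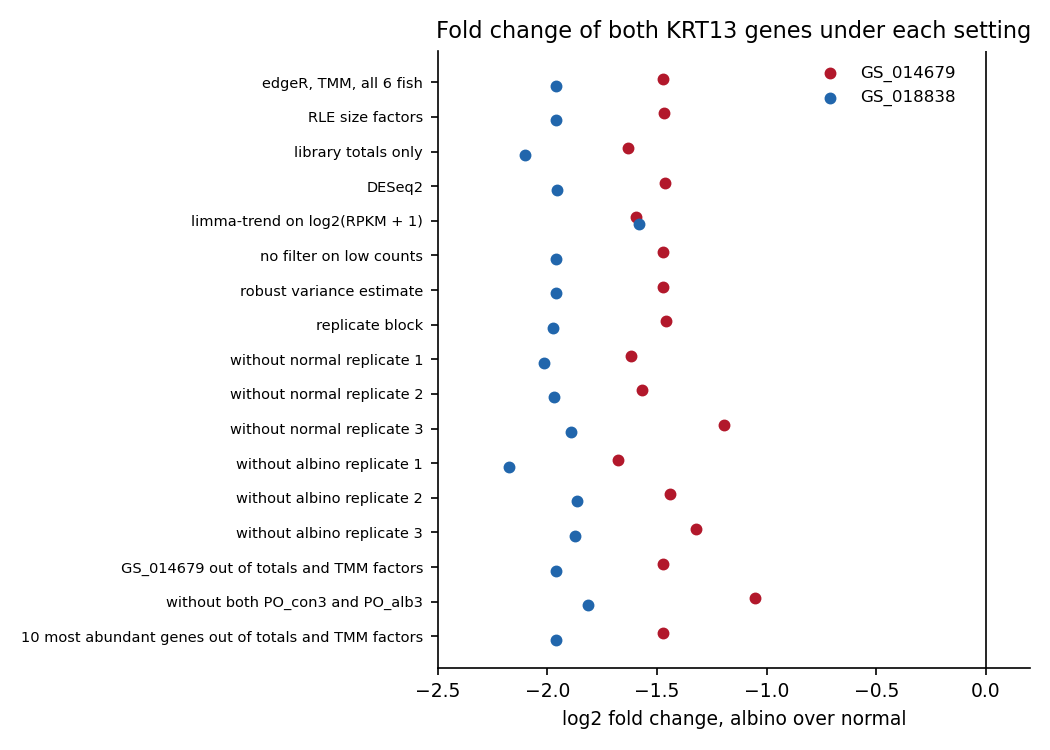
Log2 fold change of albino over normal (horizontal axis) of both KRT13 genes under each processing setting (rows), 1 point a gene and setting. All points lie below 0, GS_014679 between -1.68 and -1.05 and GS_018838 between -2.17 and -1.58, and the genes nearly coincide only where 1 was added to the RPKM.

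Other genes of intermediate filaments carry a name only where the study found them changed, so their directions were fixed in advance by that choice. Of 4 such genes 3 were called lower, none higher, and 1 was not called, by the quasi-likelihood test of edgeR with Benjamini-Hochberg adjustment at 0.05, beside 0.910% of the 16260 genes tested called lower and 0.129% called higher. Their median log2 fold change was -2.87, against 0.0082 over all genes tested. KRT18, a type I keratin of simple epithelia that pairs with KRT8, had normalized counts of 151, 115 and 172 in normal fish, by replicate number, and of 4.94, 11.4 and 1.29 in albino fish. Its log2 fold change was -4.52 (SE 0.45). Per length, KRT18 was near GS_018838 in normal skin, with an RPKM of 4.95 to 9.14 against 5.02 to 8.48, and below it in albino skin, with 0.0429 to 0.499 against 1.07 to 2.10. VIM (vimentin), the filament protein of mesenchymal cells, had 440.2, 455 and 466 in normal and 43.5, 21.8 and 27.2 in albino fish, and LMNA, a lamin of the inner nuclear envelope, had 194, 136 and 193 in normal and 55.4, 38.0 and 50.5 in albino fish. Their log2 fold changes were -3.87 (SE 0.24) and -1.87 (SE 0.23), that of LMNA being close to the values of the KRT13 genes.

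DES (desmin), the filament protein of muscle, ran the other way. Its normalized count was 23889, 21486 and 11831 in normal fish, by replicate number, and 31919.8, 37626 and 45868 in albino fish. DES was not called, at a log2 fold change of 1.01 (SE 0.30). By normalized count the fish with the most KRT13 RNA of both kinds, PO_con3, had the least DES, and the fish with the least KRT13, PO_alb3, had the most. In RPKM PO_con3 was again lowest in DES (579), but PO_alb2 (1518) stood above PO_alb3 (1398). The 4 muscle genes with a name (DES, TNNT2, MUSTN1 and METTL21C) summed to normalized counts of 12272 to 24703 in normal and 33590.5 to 47638 in albino fish, nearly all of it from DES. All 4 were read in every fish, 1 was called higher (0.129% of all genes tested were) and 3 were not called, with a median log2 fold change of 1.38. These genes carry names because the study listed them as higher in albino skin, and the KRT13 genes were picked for being lower, so the opposite course of the groups is built in by the choice. The course within the groups was not the study's criterion. With the group means taken off, Pearson's r of log2(RPKM + 1) with DES was -0.73 for GS_014679 and -0.71 for GS_018838. From the highest r down, DES stood 14543rd and 14545th of 14975 genes, a description over 6 libraries that share their scaling. No such r was taken for TNNT2, MUSTN1 and METTL21C, and these did not all run against the pair within groups. From PO_con1 to PO_con3 the RPKM of METTL21C was 16.8, 19.3 and 19.5, and that of TNNT2 was 4.82, 2.90 and 0.795. MUSTN1 had 80.7, 57.8 and 48.3 there. In PO_alb1 to PO_alb3 METTL21C had 46.9, 32.2 and 38.9, TNNT2 9.31, 9.33 and 6.14, and MUSTN1 182, 188 and 145. The part of muscle RNA in the KRT13 values was not tested. The 10 melanophore genes with a name, among them PMEL, TYR, MLANA and OCA2, summed to 1347 to 1783 in normal and 120.4 to 175 in albino fish. Of these 9 were called lower, beside 0.910% of all genes tested, and 1 was not called, a direction that was likewise fixed because the study listed them as lower. None was at 0 in every fish, and 2 were at 0 in some fish. Their part in the KRT13 values was not tested either. Markers of epidermis could not be checked, since the files pair no further names with gene IDs.

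Over the 6 fish the profile of 1 of the pair was close to that of the other, and other genes were closer still. Across 14976 genes with a mean RPKM of at least 1, likeness was taken as Pearson's r of log2(RPKM + 1) over the 6 libraries, as a description only, since the libraries share their scaling and fall into 2 groups. The r of GS_014679 with GS_018838 was 0.96, and 153 genes were nearer to GS_014679 and 109 nearer to GS_018838. With the group means taken off it was 0.98, with 731 and 287 genes nearer. The genes most like GS_014679 were GS_021121, which has no name in the study (r = 0.998), and GS_016685, named MSMB after a secreted protein of mammalian seminal fluid and mucosa (r = 0.997). By replicate number, MSMB had an RPKM of 17.2, 23.7 and 34.2 in normal fish and of 13.3, 9.94 and 6.29 in albino fish. The gene most like GS_018838 was GS_014594, named FCAMR after a receptor for the Fc part of IgA and IgM (r = 0.999). Its RPKM was 5.38, 6.89 and 9.10 in normal and 2.46, 1.67 and 1.18 in albino fish, near those of the keratin in level as well as in order. Next came GS_016041, without a name (r = 0.996). Within groups, with the means taken off, the closest were GS_013244 to GS_014679 (r = 0.9998) and GS_020043 to GS_018838 (r = 0.999), both without a name. MSMB and FCAMR were themselves picked by the study for being lower in albino skin.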

How the data were processed

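Per the submitters' notes and the paper, the authors mapped reads with TopHat2 2.0.9 and Bowtie2 2.0.6, assembled transcripts with Cufflinks 2.1.1 and counted reads per gene with HTSeq. They deposited raw read counts and RPKM of 22498 genes in 6 libraries. The genome build, the strand setting and the handling of reads with several hits are not given in the sources used here. The deposited RPKM equal the counts divided by a length per gene and by the total of the library in the count table, within a relative deviation of 1.7e-14, so RPKM and counts are 1 measurement.

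Counts were tested in R 4.3.3 with edgeR 4.0.16 (filterByExpr, TMM, quasi-likelihood test, Benjamini-Hochberg adjustment over 16260 genes, threshold 0.05). Normalized counts are counts divided by the TMM-scaled library size and multiplied by the mean library size after the filter (18524139). The SE is the log2 fold change divided by the square root of the quasi-likelihood F. The intervals of shares are Wilson intervals and those of ratios exact binomial intervals, at 95%. The study's own test (DESeq) was not run. The alternatives were RLE scaling, library totals alone, DESeq2 1.42.0, limma-trend (limma 3.58.1) on log2(RPKM + 1), no filter, a robust variance estimate, the replicate number as a block, omission of libraries and changed totals. Figures were drawn with matplotlib 3.10.9.

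The genes named are the pair, its neighbours in rank (given without their IDs), IDs most like each of the pair, and the named intermediate filament genes and marker lists. For likeness over the 6 libraries the 2 closest IDs are given. With the group means taken off, only the closest ID is given. The members and lists were chosen with earlier results of these data known. Names come from the tables of the paper. None of the gene IDs matched the RefSeq table held here, so a keratin list by symbol was not tested.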

Additional observations from a re-analysis of the deposited data

How the results depend on the processing

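The log2 fold changes of both KRT13 genes were below 0 in all 16 alternatives. That of GS_014679 ranged from -1.68 to -1.05 and left the spread between fish only without both PO_con3 and PO_alb3 (-1.05). That of GS_018838 ranged from -2.17 to -1.58, left the spread only with limma-trend on log2(RPKM + 1) (-1.58). The edgeR test with all 6 fish did not call GS_014679. Of the 16 alternatives only DESeq2 called it, and none of the 6 fits with 1 fish left out did. GS_018838 was called with all 6 fish and in 14 alternatives, among them all 6 fits with 1 fish left out. The pair was chosen on this contrast, so neither the shared direction nor these calls are a sign of stability. The genes called lower, 148 in all, were 272 with DESeq2, 89 with limma-trend, 55 without both PO_con3 and PO_alb3, and 67 to 138 with 1 fish left out. With the replicate block 53 genes were called lower. Deviations from the group means correlated at -0.156, 0.185 and -0.417 between fish of equal number, and at -0.281 to 0.406 between fish of unequal number. These values gave no ground to treat the replicate numbers as pairs. Whether fish of equal number shared a batch was not tested. The mean log2 ratio of the pair, 7.03, was 6.55 with 1 added to the RPKM and 8.19 on read counts, which are not scaled by length, and the albino minus normal difference of that ratio, 0.53, turned to -0.011 with 1 added. Omission of both PO_con3 and PO_alb3, changed totals of the 10 most abundant genes and the alternatives of that last difference were chosen after seeing the data. Depth limits GS_018838, with 20 to 39 reads in albino fish.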
